A study of Drosophila melanogaster with 54 samples.

Results

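The respiratory chain genes of the fruit fly Drosophila melanogaster were followed through embryogenesis in 54 single embryos of 8 morphological stages. The members are all genes whose FlyBase symbol begins with ND-, UQCR-, COX, ATPsyn or mt:, with the transfer RNA genes of mitochondrial DNA left out. They number 95 of the 17481 gene entries counted, of which 80 are encoded in the nucleus and 15 in mitochondrial DNA. The embryos fall into stage 4 (n = 5), stage 5 (n = 9), stage 6 (n = 5), stage 8 (n = 5), stage 10 (n = 9), stage 12 (n = 5), stage 13 (n = 8) and stage 15 (n = 8). Each library was made from 1 whole embryo that was picked by hand and staged by its shape under a microscope, with no treatment named. The labels give neither strain, genotype, sex nor parents, so embryos of a stage may or may not share a mother. Because whole embryos were lysed, fewer cells of a type and less RNA per cell cannot be told apart.

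The respiratory chain carries electrons from NADH and succinate to oxygen and pumps protons across the inner mitochondrial membrane, and ATP synthase uses the returning protons to make ATP. Complex I (symbols ND- and mt:ND) takes electrons from NADH, complex III (UQCR- and mt:Cyt-b) passes them from ubiquinone to cytochrome c, complex IV (COX and mt:Co) reduces oxygen, and complex V (ATPsyn and mt:ATPase) is the ATP synthase. Most subunits are encoded in the nucleus and imported, while a small core of each of these complexes and the ribosomal RNAs that translate it are encoded in mitochondrial DNA, which is transcribed into long precursors from both strands. The fly egg is supplied by the mother with both mitochondria and messenger RNA, and the zygotic genome is broadly activated in the blastoderm around stage 5.

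Of the 80 nuclear members, 40 belong to complex I, 9 to complex III, 16 to complex IV and 15 to complex V. Among them 21 are second copies, genes whose symbol ends in L, L1, L2 or L3, and 59 are main copies; ND-MNLL, whose name ends in L as that of a single subunit, was counted as a main copy. The 15 mitochondrially encoded members comprise 13 protein genes (7 of complex I, 1 of complex III, 3 of complex IV and 2 of complex V) and the 2 ribosomal RNA genes mt:lrRNA and mt:srRNA. After a filter on low counts 77 members were tested, among 9783 genes in all. These were 56 main copies, 6 second copies and all 15 mitochondrially encoded members. A member whose reads are few at most stages passed that filter through the stages where it is high, so counts over the tested members do not describe all 95. The 3 main copies that were not tested are UQCR-14, ND-MNLL and ND-B8.

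Gene counts per embryo ranged between 1632448 and 12863155 (median 4713817). Levels are given in counts per 1000000 gene counts (CPM), scaled between embryos by edgeR's TMM factors, and levels of different genes are compared only per kilobase of exon. A CPM value is a share of an embryo's gene counts, and spike-in RNA was not used here. The stage labels were checked against fixed marker genes. Between stages 15 and 4, 4 of 4 tested maternal RNAs (among them osk and bcd) were lower and 5 of 5 late markers (among them Act57B of muscle and elav of neurons) were higher, and 4 of 5 blastoderm markers (slam and eve among them) were higher at stage 5 than at stage 4. Of the libraries, 46 are directional and 8, the embryos with letters A, B, F and G of stages 13 and 15, are not. The libraries with letter B of stages 4, 5, 6, 8, 10 and 12 stand apart in mitochondrial RNA. Their ratio of mitochondrial ribosomal RNA to mitochondrial protein-gene RNA was 1.35 to 1.67, against 0.577 to 1.04 in the other embryos of those stages, and their summed mitochondrial protein-gene RNA was the lowest of its stage in 6 of 6 stages. Their summed nuclear complex IV RNA was the highest of its stage in 6 of 6 stages. For each comparison that holds any of these 6 libraries, a count or median of the mitochondrial genes is therefore also given without them. Their part in any result was not tested.

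**Figure D1:**
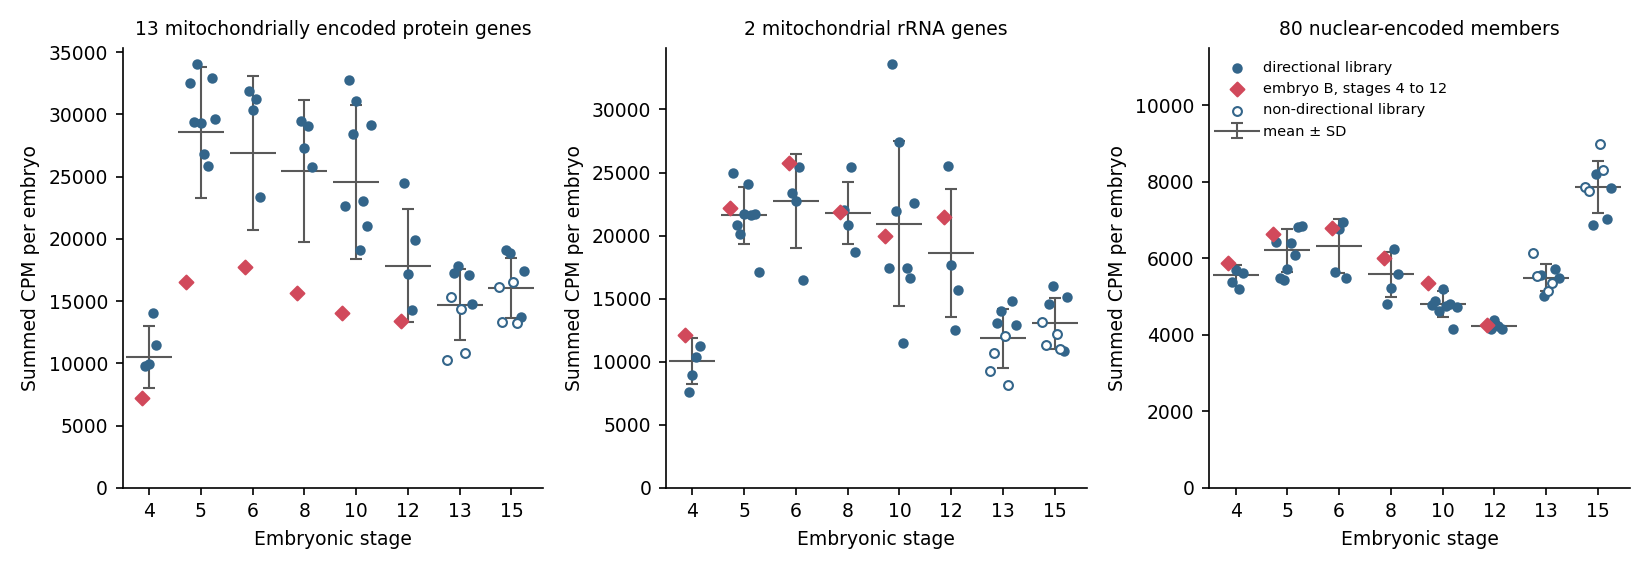
Summed CPM in each embryo (points) by embryonic stage for the 13 mitochondrially encoded protein genes, the 2 mitochondrial ribosomal RNA genes and the 80 nuclear members. Horizontal lines are stage means and bars are SD; diamonds are the libraries with letter B of stages 4 to 12 and open circles the non-directional libraries. The mitochondrial sums stand lowest at stage 4 and highest at stages 5 to 10, while the nuclear sum is lowest at stage 12 and highest at stage 15.

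The 2 genomes followed different courses. The summed RNA of the 13 mitochondrial protein genes averaged 10498 ± 2489, 28558 ± 5277, 26922 ± 6170, 25465 ± 5674, 24588 ± 6164, 17847 ± 4522, 14723 ± 2869 and 16049 ± 2390 CPM (SD over embryos) through stages 4, 5, 6, 8, 10, 12, 13 and 15. Over the same stages the 80 nuclear members summed to 5554 ± 267, 6202 ± 554, 6319 ± 701, 5578 ± 582, 4806 ± 341, 4233 ± 92.8, 5495 ± 349 and 7855 ± 685 CPM. The mitochondrial sum was 2.72 times as high at stage 5 as at stage 4, without overlap between the embryos, and later declined, whereas the nuclear sum dipped to its minimum at stage 12 and climbed at stages 13 and 15.

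The ratio of mitochondrial protein-gene RNA to nuclear respiratory RNA within an embryo was 1.91 ± 0.53, 4.66 ± 1.05, 4.31 ± 1.09, 4.65 ± 1.30, 5.14 ± 1.28, 4.23 ± 1.13, 2.70 ± 0.60 and 2.06 ± 0.38 through the same 8 stages. The lowest, median and highest of the 9 stage 5 embryos were 2.49 (letter B), 4.84 and 6.28, against 1.23 (letter B), 1.81, 1.75, 2.70 and 2.05 in the stage 4 embryos, so the groups overlapped only through the letter-B library of stage 5. The stage 15 embryos (1.59 to 2.78) lay within nearly the same range as those of stage 4 (1.23 to 2.70). The libraries of stage 4 are all directional, and the 4 directional ones of stage 15 lay between 1.96 and 2.78. The mean ratio was 2.315 in the non-directional and 3.086 in the directional libraries of stage 13, and 1.802 and 2.315 in those of stage 15 (n = 4 each). The part of library kind in the ratio was not tested. Without the 6 letter-B libraries the ratio was 2.08 ± 0.43 at stage 4, 4.93 ± 0.70 at stage 5 and 5.45 ± 0.92 at stage 10. At stage 10 letters D, E, F and J lay between 5.96 and 6.7 and the 5 other embryos between 2.63 and 5.07.

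At stage 5 against stage 4 every mitochondrially encoded member was higher. All 15 of 15 passed an edgeR adjusted p of 0.05, with a median log2 change of 1.46 and a range of 0.90 to 1.95. Of all genes tested, 52.1% were called higher and 30.6% lower in this comparison, and their median log2 change was 0.72. In 10 of the 15 the lowest stage 5 embryo lay above the highest stage 4 embryo, letter B included, as in 37.9% of all genes. The count was also 15 without the letter-B libraries, with a median of 1.41.

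mt:CoI (mitochondrial genome, 1474-3009, plus strand), the catalytic subunit of complex IV, had a lowest, median and highest level of 6388, 11722 and 13565 CPM in the 9 stage 5 embryos, against 2993, 3914, 3967, 5520 and 4398 CPM in the 5 stage 4 embryos. The groups did not overlap, and the lowest embryo of each was the letter-B one. The log2 change was 1.44 ± 0.18 (SE; edgeR adjusted p = 3.53e-10). mt:ATPase6 (4062-4736, plus strand), the membrane subunit of ATP synthase that forms its proton channel, had 893, 1357 and 1550 CPM at stage 5, against 312, 361, 427, 583 and 584 CPM at stage 4. Its groups did not overlap either, and its log2 change was 1.56 ± 0.19 (edgeR adjusted p = 1.54e-10), the lowest p among the mitochondrial members.

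The 2 ribosomal RNAs rose with the protein genes, mt:lrRNA of the large subunit having the smallest change of the 15. mt:srRNA had 5734, 9159 and 10726 CPM (lowest, median, highest) at stage 5, against 2567, 2327, 2597, 4400 and 3953 CPM at stage 4, a log2 change of 1.47 ± 0.24 (edgeR adjusted p = 2.28e-07). mt:lrRNA had 9416, 12050 and 16763 CPM at stage 5, against 9533, 5271, 6352, 6008 and 7326 CPM at stage 4, a log2 change of 0.90 ± 0.18 (edgeR adjusted p = 1.91e-05). The groups of mt:lrRNA overlapped only through the letter-B library, the highest of stage 4, while those of mt:srRNA did not overlap. Ribosomal RNA was depleted with a kit made for mammals, and its effect on these 2 genes was not tested.

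The other mitochondrially encoded members at stage 5 against stage 4 were the subunits of complex I, of complex III and the remaining ones of complexes IV and V. mt:ND1, mt:ND2, mt:ND3, mt:ND4 and mt:ND5 had log2 changes of 1.43, 1.39, 1.43, 1.24 and 1.5. mt:CoII and mt:CoIII stood at 1.52 and 1.46, and mt:Cyt-b, the cytochrome b of complex III, at 1.40. mt:ND6, mt:ND4L and mt:ATPase8 had log2 changes of 1.95, 1.46 and 1.59 on few reads, 1392, 353 and 431 over all 54 embryos. mt:ND2 had 9859 reads. In the annotation mt:ATPase8 and mt:ND4L share 4.32% and 0.344% of their exon bases with a neighbour, and mt:ND6 and mt:ND2 share 0%. What lowers the counts of these 4 genes was not tested.

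Per kilobase, and averaged over the 8 stage means, the mitochondrial members were ordered mt:srRNA (8335 CPM per kb), mt:lrRNA (8329), mt:CoI (5443), mt:CoIII (5141), mt:Cyt-b (2699), mt:CoII (2656), mt:ATPase6 (1037), mt:ND5 (677), mt:ND4 (583), mt:ND1 (484) and mt:ND3 (376), followed by the 4 genes with few reads. In these averages the 2 ribosomal RNAs, mt:CoI and mt:CoIII, and mt:Cyt-b and mt:CoII differ by less than the spread between embryos of a stage. The highest nuclear members per kilobase were ATPsynbeta (334 CPM per kb), ND-MLRQ (302), ATPsynC (291), COX7B (218) and ATPsynO (214). All 5 averages lie below that of mt:ND3.

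**Figure D2:**
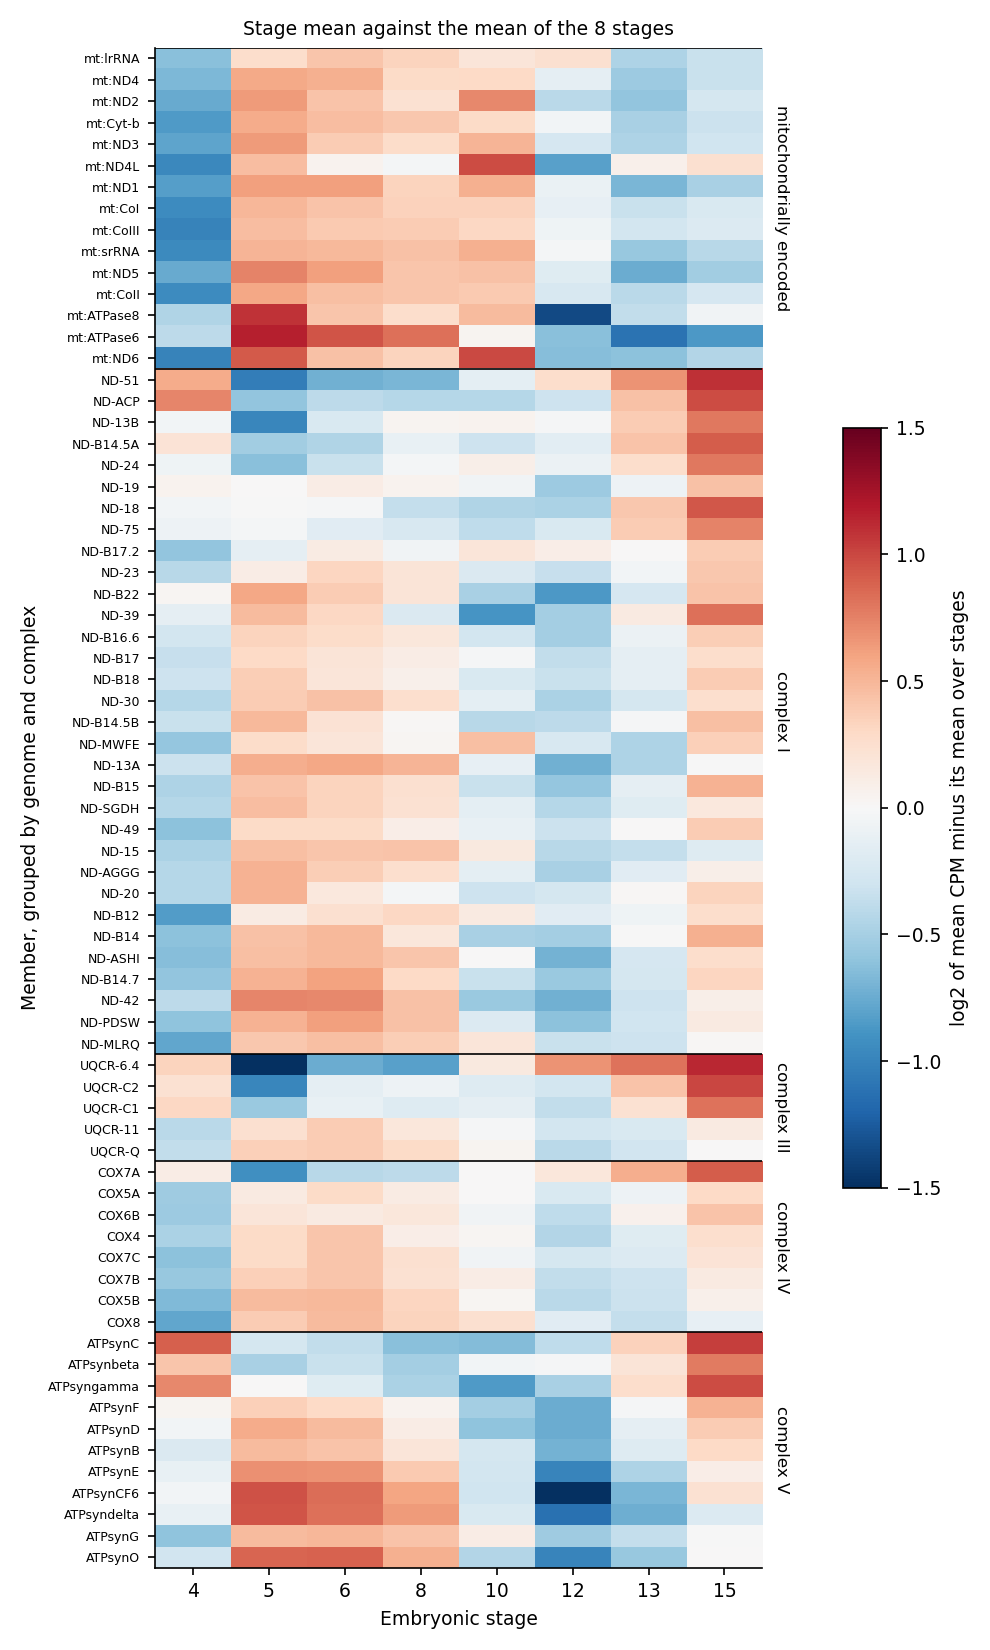
Mean level of each tested mitochondrially encoded member and nuclear main copy (rows) at each stage (columns), as log2 of the stage mean CPM minus the gene's mean over the 8 stages; red is above and blue below that mean. Within each complex the rows are ordered by the change between stages 5 and 4, so the 12 nuclear genes that fell at stage 5 form the upper rows of complexes I, III, IV and V.

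Nuclear members split at stage 5 against stage 4. Of the 56 main copies tested, 41 were higher, 12 lower (edgeR adjusted p under 0.05) and 3 (ND-18, ND-19 and ND-75) not called. Of all genes tested, 52.1% were higher and 30.6% lower. With the 6 tested second copies, of which 4 were higher, the count was 45 higher and 12 lower of 62. COX4L, ND-49L, ND-51L1 and UQCR-6.4L had no read at stage 4 and passed the filter through later stages. The median log2 change of the 56 main copies was 0.73, against 0.72 for all genes tested. In 37 of the 56 the stage 5 embryos all lay above those of stage 4, and in 11 all below, against 37.9% and 25.8% of all genes tested. By complex, 24 of 32 main copies rose and 5 fell in complex I, 2 rose and 3 fell of 5 in complex III, 7 rose and 1 fell of 8 in complex IV, and 8 rose and 3 fell of 11 in complex V.

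The 12 main copies that fell are ND-51, ND-24, ND-13B, ND-ACP and ND-B14.5A of complex I, UQCR-C1, UQCR-C2 and UQCR-6.4 of complex III, COX7A of complex IV, and ATPsynC, ATPsynbeta and ATPsyngamma of complex V. Several of them are central parts of their complexes, while others, such as COX7A, are accessory. ND-51 and ND-24 are orthologues of the mammalian subunits that hold the NADH site and pass its electrons on, UQCR-C1 and UQCR-C2 are the core proteins of complex III, ATPsynbeta is the catalytic subunit of ATP synthase, ATPsyngamma its rotating stalk and ATPsynC its membrane ring. Central subunits did not fall as a set. Of those of complex I, ND-49, ND-30, ND-23 and ND-20 were among the 41 that rose, and ND-75 was not called. The 12 that fell had a median log2 change of -0.99, against 0.89 for the 41 that rose. Together these 12 genes summed to 1425 ± 305 CPM at stage 5 and 2872 ± 161 CPM at stage 4, while the 41 that rose summed to 4514 ± 309 CPM at stage 5 and 2455 ± 141 CPM at stage 4.

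ND-51 (2L:6060842-6062757, minus strand) had the lowest p among the genes that fell. Its lowest, median and highest levels were 28.5, 38.0 and 42.2 CPM in the stage 5 embryos, against 113, 118, 116, 104 and 110 CPM in the stage 4 embryos. The groups were far apart, with a log2 change of -1.60 ± 0.09 (SE; edgeR adjusted p = 2.77e-22). UQCR-C2 (3L:16584124-16586111, plus strand) had 47.8, 53.2 and 60.0 CPM at stage 5, against 143, 139, 152, 100.8 and 89.8 CPM at stage 4, with a log2 change of -1.20 ± 0.09 (edgeR adjusted p = 1.83e-17). The stage 4 embryos of UQCR-C2 were themselves spread, letters G and H standing low, yet all lay above stage 5.

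ATPsynbeta (chromosome 4:1031484-1034917, plus strand) had 331, 503 and 890 CPM at stage 5, against 1013, 1066, 1065, 955 and 982.5 CPM at stage 4, with a log2 change of -0.89 ± 0.13 (edgeR adjusted p = 2.54e-08). ATPsynC (3R:31216145-31219630, minus strand) had 319, 411 and 537 CPM at stage 5, against 984, 858, 966.5, 852.5 and 929 CPM at stage 4, with a log2 change of -1.16 ± 0.09 (edgeR adjusted p = 5.55e-17). Neither gene's groups overlapped, and ATPsynbeta was the more variable at stage 5. COX7A (3R:8339944-8341043, minus strand), an accessory subunit of complex IV, had 18.9, 30.7 and 40.9 CPM at stage 5, against 86.55, 46.2, 66.3, 49.7 and 60.0 CPM at stage 4, a log2 change of -1.04 ± 0.13 (edgeR adjusted p = 6.95e-10), while the other 7 main copies of complex IV all rose.

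Among the 41 that rose, ND-42 (3R:22027709-22029393, plus strand), an accessory subunit of complex I, had 227, 240 and 264 CPM at stage 5, against 111, 113, 107, 106 and 117.5 CPM at stage 4. The groups were separate and tight, with a log2 change of 1.12 ± 0.07 (edgeR adjusted p = 1.22e-20). ATPsynCF6 (3R:23355220-23356064, minus strand), coupling factor 6 in the peripheral stalk of ATP synthase, had 163, 194.5 and 218 CPM at stage 5, against 103, 92.8, 92.4, 83.6 and 107 CPM at stage 4, with a log2 change of 1.00 ± 0.12 (edgeR adjusted p = 1.02e-10). ND-MLRQ, orthologous to a small mammalian subunit now assigned to complex IV, rose by 1.18 on the log2 scale, COX7B by 0.92, COX5A by 0.67, COX6B by 0.73 and ATPsynG by 1.08. The 3 main copies that were not called had changes within 1 SE of 0, ND-18 (log2 change 0.04 ± 0.10), ND-75 (0.04 ± 0.07) and ND-19 (-0.05 ± 0.11).

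**Figure D3:**
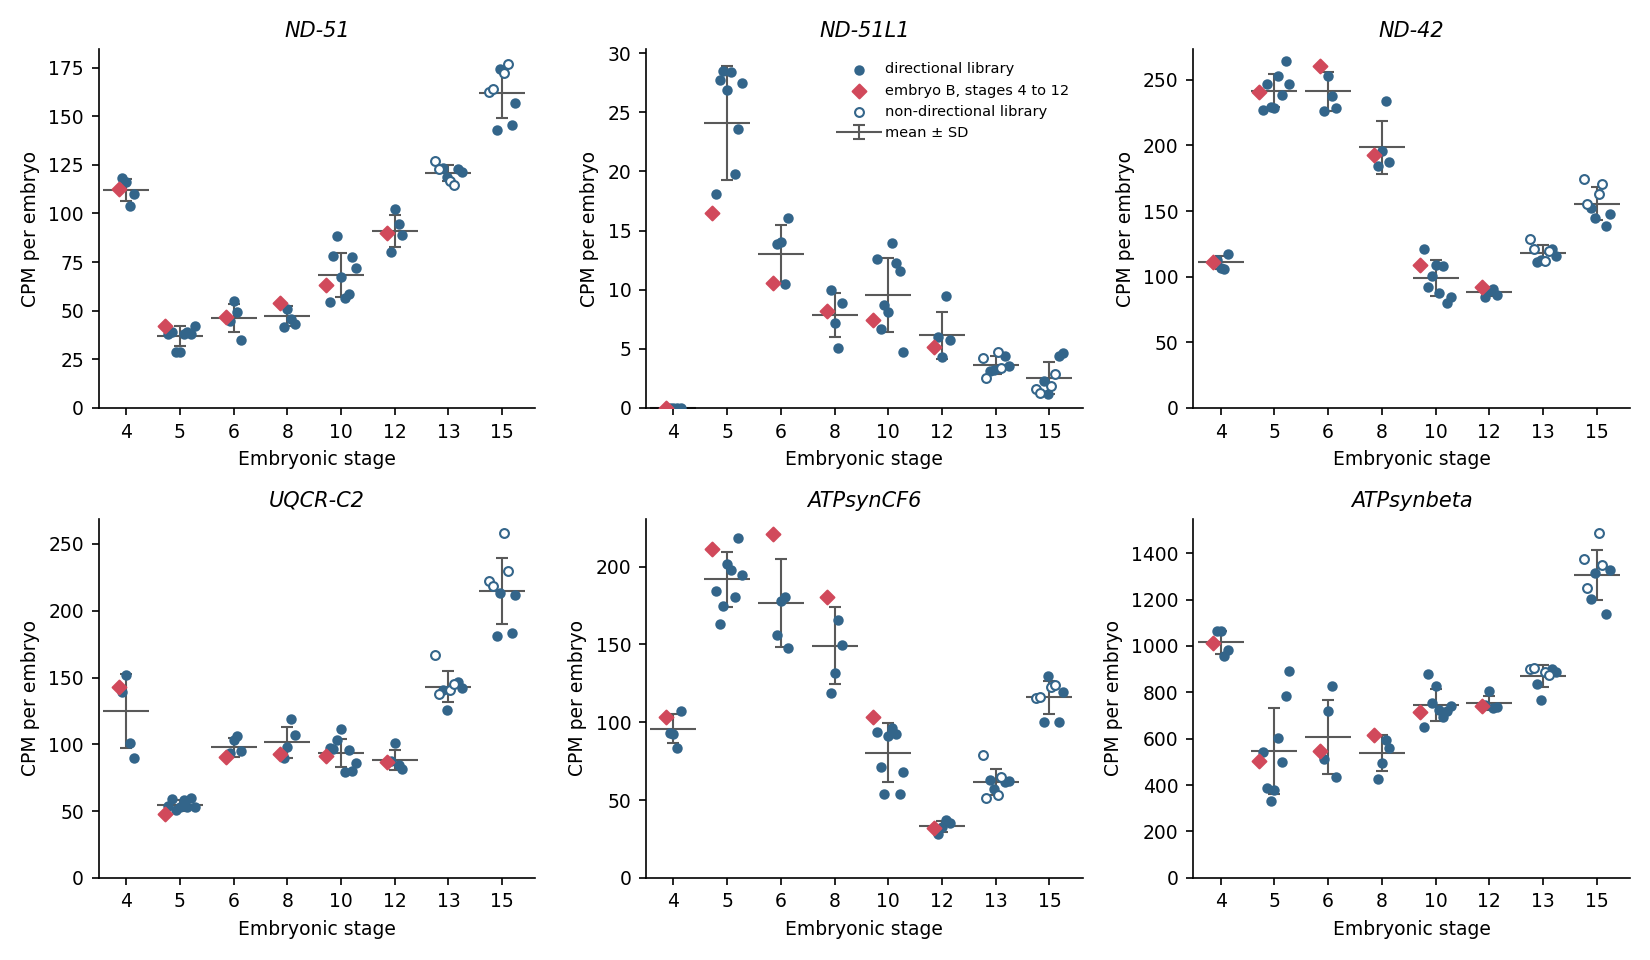
CPM in each embryo (points) by stage for 6 nuclear members; horizontal lines are stage means and bars SD, diamonds are letter-B libraries of stages 4 to 12 and open circles non-directional libraries. ND-51, UQCR-C2 and ATPsynbeta are lower at stage 5 than at stage 4, ND-42 and ATPsynCF6 are higher there and lowest at stage 12, and ND-51L1 had no read at stage 4 and its highest level at stage 5.

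Most second copies had few or no reads. Of the 21, 15 were not tested for want of reads, and none of those exceeded 235 reads over all 54 embryos. The most abundant is ND-51L1 (2R:17595267-17597409, plus strand), the second copy of ND-51. It had 16.5, 26.8 and 28.5 CPM (lowest, median, highest) at stage 5, against 0 reads in each of the 5 stage 4 embryos. Set against a floor of 3 reads over the 5 stage 4 libraries (0.0672 CPM), its mean of 24.1 CPM at stage 5 is at least 358-fold higher (edgeR adjusted p = 1.6e-23). It then averaged 13.0 ± 2.43, 7.87 ± 1.84, 9.55 ± 3.14, 6.13 ± 1.95, 3.64 ± 0.76 and 2.52 ± 1.36 CPM through stages 6, 8, 10, 12, 13 and 15. Over stages 4, 5, 6, 8, 10, 12, 13 and 15 ND-51 averaged 112, 37.1, 46.2, 47.1, 68.4, 91.0, 121 and 162 CPM. ND-51L1 was thus at its highest mean at stage 5, where ND-51 was at its lowest. After stage 5 the means of ND-51 climbed throughout. Those of ND-51L1 declined, except between stages 8 and 10, where they were 7.87 and 9.55 CPM.

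ND-51L2, a further copy of ND-51, averaged 1.44 ± 0.60 CPM at stage 5 and 0.0267 ± 0.0598 CPM at stage 4, where 1 of 5 embryos held any read. ATPsynepsilonL was the only second copy called lower at stage 15 than at stage 4, with 0.5405 ± 0.30 CPM at stage 15 and 6.43 ± 5.76 CPM at stage 4, a log2 change of -3.43 ± 0.69 (edgeR adjusted p = 1.15e-05). Of its stage 4 embryos 1 stood at 16.6 CPM and the others between 2.94 and 5.42 CPM. The other 3 tested second copies are uncertain, because in the directional libraries 0% of the strand-resolved reads of ND-49L, 1.5% of those of UQCR-6.4L and 52.8% of those of COX4L lay on the gene's own strand. Their means did not exceed 3.325 CPM at any stage.

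Between stages 5 and 8 no change of a mitochondrial gene passed the test. At stage 6 against stage 5, and at stage 8 against stage 6, edgeR called 0 of 15 in either direction, 0 at an unadjusted p under 0.05, and DESeq2 called 0. Of all genes 28% were higher and 21.5% lower at stage 6 against stage 5, and 9.8% and 8.65% at stage 8 against stage 6. The median log2 changes were -0.12 in both comparisons, with 13 of 15 below 0 at stage 6 against stage 5 and 15 of 15 at stage 8 against stage 6. Without the letter-B libraries the medians were -0.06 at stage 6 against stage 5 and -0.07 at stage 8 against stage 6. Without the library of letter G at stage 6, 1 mitochondrial member was called lower at stage 6 than at stage 5. A change that the spread between embryos hides was not detectable, since the coefficient of variation within a stage was between 16.6% and 37.6% for the median mitochondrial protein gene and between 8.9% and 14.9% for the median nuclear main copy.

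Few nuclear members were called over these stages. At stage 6 against stage 5, 8 of 56 main copies were higher and 1 lower (all genes 28% and 21.5%). Their median log2 change was 0.02. With the 6 tested second copies the counts were 9 higher and 2 lower of 62. In 1 main copy the stage 6 embryos all lay above those of stage 5 and in 0 all below, against 15.4% and 13.2% of all genes. The 8 main copies among the higher ones include UQCR-C1, UQCR-C2 and UQCR-6.4 of complex III. Of the 8, 7 had fallen at stage 5 against stage 4, a comparison that shares the stage 5 embryos with this one. UQCR-C2 had 90.2, 93.6, 103, 106.5 and 94.95 CPM in the 5 stage 6 embryos, against a highest stage 5 embryo of 60.0 CPM, a log2 change of 0.85 ± 0.09 (edgeR adjusted p = 3.05e-11). At stage 8 against stage 6, 0 of 62 were higher (2 at an unadjusted p under 0.05, and 0 by DESeq2) and 9 lower (all genes 9.8% and 8.65%). Of the 62, 50 had a log2 change below 0. The median of the main copies was -0.15, against -0.00 for all genes. In 0 main copies all stage 8 embryos lay above those of stage 6 and in 1 all below, against 7.22% and 6.03% of all genes. The 9 were led by ND-39 (3L:20492082-20497084, plus strand), an accessory subunit of complex I, with 118, 58.5, 73.7, 84.4 and 84.8 CPM at stage 8 against 121.5, 104, 133, 127 and 119 CPM at stage 6. Its groups overlapped only through the letter-B embryo of stage 8, with a log2 change of -0.52 ± 0.14 (edgeR adjusted p = 0.00497). The count of 9 was 5 without the letter-B libraries, and lay between 3 (without stage 6 letter G or stage 8 letter C) and 10 when single embryos were left out.

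At stage 10 against stage 8 the decline of the nuclear members was broad. Of the 62, 31 were lower and 5 higher, against 24.9% lower and 25.6% higher among all genes, and the median of the main copies was -0.28, against 0.03 for all genes. Of the 41 that had risen at stage 5, 30 were among the lower, while of the 12 that had fallen at stage 5, 4 were higher and 1 lower. The 31 lower main copies were 19 of the 32 of complex I, 3 of the 8 of complex IV and 9 of the 11 of complex V. In 14 of 56 main copies the stage 10 embryos all lay below those of stage 8, and in 3 all above, against 11.7% and 11.6% of all genes. Without stage 10 letters D, E, F and J, whose mitochondrial RNA is described with the mitochondrial genes, 28 of 60 tested were lower and 3 higher. In that fit 4445 of 9785 genes were called, 53.0% of them higher.

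ND-42 had 80.2, 100.7 and 121 CPM (lowest, median, highest) at stage 10, against 192, 184, 196, 233 and 187 CPM at stage 8. The groups were separate by a wide gap, with a log2 change of -1.0 ± 0.07 (edgeR adjusted p = 5.59e-18). ATPsynO, the subunit that joins the peripheral stalk to the catalytic head, had a log2 change of -0.97 and ATPsynCF6 one of -0.89. In the opposite direction ND-51 had 54.4, 67.3 and 88.3 CPM at stage 10, against 53.8, 41.8, 50.7, 45.9 and 43.1 CPM at stage 8, with a log2 change of 0.53 ± 0.10 (edgeR adjusted p = 7.41e-06), its groups just not overlapping. ATPsynbeta had 650, 726 and 878 CPM at stage 10, against 618, 427, 493.5, 595 and 558 CPM at stage 8, again just without overlap, a log2 change of 0.47 ± 0.14 (edgeR adjusted p = 0.00389).

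At stage 10 against stage 8, 24.9% of all genes were lower and 25.6% higher. Of the mitochondrial genes, 1 of 15 was lower at stage 10 than at stage 8, and 0 higher (0 at an unadjusted p under 0.05 and 0 by DESeq2). The 1 is mt:ATPase6, with 416, 580 and 969 CPM (lowest, median, highest) at stage 10, against 687, 1160, 1177, 1325 and 944 CPM at stage 8. The groups overlapped, and the log2 change was -0.79 ± 0.17 (edgeR adjusted p = 0.000145). The median over the 15 was 0.03, and -0.05 without the letter-B libraries. Stage 10 was the most uneven stage for mitochondrial RNA: the embryos with letters D, E, F and J had 62.3 to 138 CPM of mt:ND2, against 25.2 to 32.7 CPM in the 5 others, and 12.8 to 22.8 CPM of mt:ND6, against 2.40 to 4.93 CPM. These 4 embryos also held the most mt:srRNA, 10921 to 15685 CPM against 4711 to 6499 CPM. The labels do not set them apart, but the same 4 libraries had the fewest gene counts of the stage, 2537965 to 3283380 against 3973735 to 5700497, and the smallest share of reads assigned to genes, 13.3% to 14.7% against 14.9% to 17.2%. The part of depth in their levels was not tested. They were singled out after their values were seen, so counts without them are given as a description. Without them 2 of 15, mt:ATPase6 and mt:srRNA, were lower at stage 10 than at stage 8, and the median over the 15 was -0.41.

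Within an embryo the balance between mt:ATPase6 and mt:CoIII, which lie side by side on the same strand, was lower at stage 10 than at stage 8. The ratio of their CPM was 0.234 ± 0.030, 0.255 ± 0.024, 0.227 ± 0.033, 0.211 ± 0.023, 0.129 ± 0.025, 0.103 ± 0.017, 0.0867 ± 0.0043 and 0.0972 ± 0.0082 through stages 4, 5, 6, 8, 10, 12, 13 and 15. The 9 embryos of stage 10 lay between 0.0968 and 0.167 (median 0.127), against 0.218, 0.206, 0.242, 0.211 and 0.178 in the 5 embryos of stage 8, so the groups did not overlap. The 4 embryos with high mitochondrial RNA (0.1035 to 0.1665) and the 5 others (0.0968 to 0.157) of stage 10 overlapped in this ratio. The letter-B libraries lay within the range of the others except at stage 5, where that library was the highest. mt:CoIII itself had a log2 change of -0.08 ± 0.17 at stage 10 against stage 8 and did not pass the test (edgeR adjusted p = 0.734). The 2 genes were singled out after their values were seen.

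**Figure D4:**
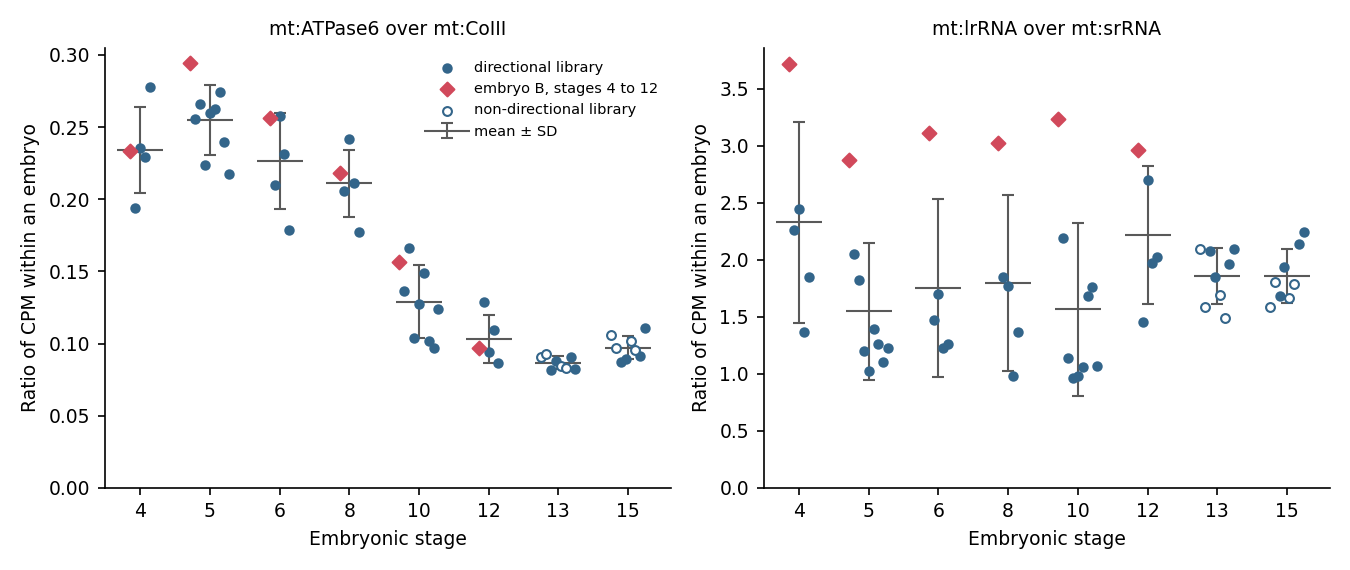
Ratio of CPM within each embryo (points) by stage, for mt:ATPase6 over mt:CoIII and for mt:lrRNA over mt:srRNA. Lines are stage means, bars SD, diamonds letter-B libraries of stages 4 to 12 and open circles non-directional libraries; the mean of the first ratio is 0.129 at stage 10 and 0.211 at stage 8, and in the second the letter-B libraries are the highest of their stage in 6 of 6 stages.

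At stage 12 against stage 10 members of both genomes were called lower, the mitochondrial ones only with the 4 stage 10 embryos of high mitochondrial RNA included. Of the 15 mitochondrial members 12 were lower and 0 higher (0 at an unadjusted p under 0.05 and 0 by DESeq2), against 23.4% lower and 24.5% higher among all genes. Their median log2 change was -0.64, against -0.01 for all genes. Without stage 10 letters D, E, F and J, edgeR called 0 of 15 lower (1 at an unadjusted p under 0.05), and the median was -0.15. The 3 not called were mt:CoIII, mt:Cyt-b and mt:lrRNA, and the largest fall with over 1000 reads was that of mt:ND6, -1.62 ± 0.43 (edgeR adjusted p = 0.00145). Without the same 4 embryos it was -0.36 ± 0.38 (edgeR adjusted p = 0.465). mt:CoI had 5490, 10192, 6881, 5978 and 8037 CPM at stage 12, against a lowest, median and highest of 5733, 9956 and 12799 CPM at stage 10, with a log2 change of -0.47 ± 0.17 (edgeR adjusted p = 0.0212), and without the 4 embryos -0.20 ± 0.19 (edgeR adjusted p = 0.386). The groups of mt:CoI overlapped, as did those of all 15 members. The count was 12 without the letter-B libraries together, but 7 without stage 12 letter B alone and 7 without stage 12 letter G.

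Nuclear members numbered 29 lower and 5 higher of 62 at stage 12 against stage 10, against 23.4% lower and 24.5% higher among all genes. The median was -0.24 over the main copies and -0.01 over all genes. Without stage 10 letters D, E, F and J 26 were lower and 6 higher of 60 tested. In that fit 4708 of 9785 genes were called, 52.4% of them higher. In 10 of 56 main copies all stage 12 embryos lay below those of stage 10 and in 1 all above, against 9.03% and 11.6% of all genes. Of the 41 that had risen at stage 5, 26 were lower and 1 higher. Lower main copies were 13 of 32 in complex I, 3 of 5 in complex III, 6 of 8 in complex IV and 6 of 11 in complex V. ATPsynCF6 led them, with 32.0, 28.1, 32.9, 37.25 and 35.0 CPM at stage 12, against 53.6, 91.1 and 104 CPM (lowest, median, highest) at stage 10. All stage 12 embryos lay below all of stage 10, with a log2 change of -1.27 ± 0.13 (edgeR adjusted p = 8.17e-12). The 5 that were higher are ND-51 (0.42), ND-39 (0.37), UQCR-6.4 (0.54), ATPsyngamma (0.37) and ATPsynC (0.27, all log2 changes). The call of ATPsynC was lost without stage 12 letter H, where its edgeR adjusted p was 0.0572.

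**Figure D5:**
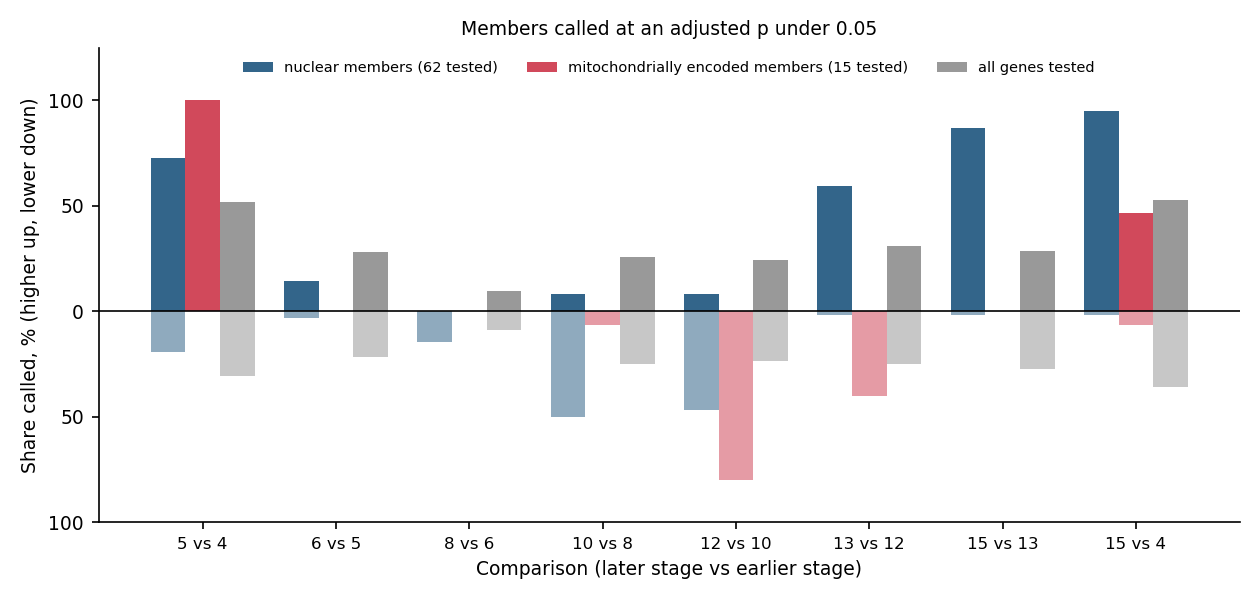
Share of the tested members called higher (up) or lower (down) at an edgeR adjusted p under 0.05 in each comparison of a later with an earlier stage, for the 62 nuclear members, the 15 mitochondrially encoded members and all 9783 genes tested. Nuclear members were called lower in 31 cases at stage 10 against 8 and higher in 54 at stage 15 against 13, where 0 mitochondrial members were called. The 62 nuclear members include 6 second copies, some of which passed the filter only through later stages.

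From stage 12 on the genomes parted. At stage 13 against stage 12, 37 of 62 nuclear members were higher and 1 lower, against 31% and 25% of all genes, and the median of the main copies was 0.36, against 0.04 for all genes. In 25 of 56 main copies the stage 13 embryos all lay above those of stage 12, and in 0 all below, against 22.4% and 14.9% of all genes. The higher main copies were 23 of 32 in complex I, 2 of 5 in complex III, 3 of 8 in complex IV and 9 of 11 in complex V. They included 25 of the 41 that had risen at stage 5, 9 of the 12 that had fallen and 3 of the 3 not called there.

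ND-75 (X:8248651-8251687, minus strand), the large iron-sulphur subunit of complex I, had the lowest p. It had 208, 215.5 and 239.5 CPM (lowest, median, highest) at stage 13, against 143.5, 141, 146, 147 and 137 CPM at stage 12. The groups were apart, with a log2 change of 0.60 ± 0.07 (edgeR adjusted p = 6.59e-10). ND-75 had not passed the test in any of the 5 earlier comparisons. In the strand-specific counts of the directional libraries it passed in 3 of them, with log2 changes of 0.17 at stage 5 against 4, -0.16 at stage 6 against 5 and 0.15 at stage 12 against 10 (edgeR adjusted p = 0.0141, 0.0285 and 0.0451). The only nuclear member called lower was the second copy ND-51L1, -0.76 ± 0.26 on the log2 scale (edgeR adjusted p = 0.0101), a call lost without stage 12 letter G (edgeR adjusted p = 0.11) and with the kind of library as a term (0.0657).

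Of all genes 25% were lower and 31% higher at stage 13 against stage 12. In the mitochondrial genes 6 of 15 were lower at stage 13 than at stage 12 and 0 higher (0 at an unadjusted p under 0.05, and 0 by DESeq2). The 6 are mt:lrRNA, mt:srRNA, mt:ATPase6, mt:ND1, mt:ND4 and mt:Cyt-b. mt:lrRNA had 4857, 8150 and 9838 CPM at stage 13, against 16077, 15127, 12918, 8284 and 10491 CPM at stage 12, with overlapping groups and a log2 change of -0.71 ± 0.18 (edgeR adjusted p = 0.00079). This count varied with the libraries and single embryos included, and the part of library kind in it was not tested. Of the 8 stage 13 libraries 4 are non-directional, and their mitochondrial protein-gene sum was 12706 ± 2553 CPM (n = 4), against 16740 ± 1359 CPM (n = 4) in the directional ones. With directional libraries only, 0 of 15 were lower, with the kind of library as a term 1, and without stage 12 letter C, the embryo with the most mitochondrial protein-gene RNA there, 1. The median over the 15 was -0.15 with directional libraries only and -0.21 with the kind of library as a term, against -0.21 in the main fit. Calls over all genes also fell in these fits, to 4533 and 4936, against 5475 in the main fit. The count was 8 without the letter-B libraries.

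At stage 15 against stage 13 nearly all nuclear members were higher. Of the 62, 54 were higher and 1 lower, against 28.8% and 27.1% of all genes. The 1 is the second copy ND-51L2, -1.01 ± 0.41 on the log2 scale (edgeR adjusted p = 0.0351), a call missing in 9 of the 54 fits that leave out 1 embryo: in 6 it did not pass the threshold, and in 3 the gene fell under the filter on low counts. It also fell under the filter without stage 10 letters D, E, F and J. The median of the 56 main copies was 0.47, against -0.01 for all genes. Of the 56 main copies 54 were higher, ND-15 and UQCR-Q being the exceptions with log2 changes of 0.18 ± 0.10 and 0.29 ± 0.13 (edgeR adjusted p = 0.133 and 0.0543). They comprised 31 of 32 in complex I, 4 of 5 in complex III, 8 of 8 in complex IV and 11 of 11 in complex V, and in 31 of 56 all stage 15 embryos lay above those of stage 13 and in 0 below, against 17.1% and 11.2% of all genes. ATPsyngamma had the lowest p, with a log2 change of 0.71 ± 0.08 (edgeR adjusted p = 1.32e-10). ATPsynCF6 had 99.9, 118 and 130 CPM (lowest, median, highest) at stage 15, against 51.6, 61.8 and 79.2 CPM at stage 13, a log2 change of 0.91 ± 0.11 (edgeR adjusted p = 2.01e-10).

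The mitochondrial genes did not pass the test in this comparison: edgeR called 0 of 15 in either direction (0 at an unadjusted p under 0.05, and 0 by DESeq2), although all 15 had a positive log2 change, with a median of 0.17. Of all genes 28.8% were higher and 27.1% lower. The nuclear sum was 7855 ± 685 CPM at stage 15 and 5495 ± 349 CPM at stage 13, without overlap. Within the non-directional libraries 51 nuclear members were higher and 1 lower of 57 tested, and 0 of 13 mitochondrial members were called. In that fit 4807 of 8875 genes were called, 52.7% of them higher. Fewer genes passed overall with directional libraries only, 3633 against 5472 of all genes.

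Over the whole span, stage 15 against stage 4, 54 of 56 nuclear main copies were higher and 0 lower, against 52.8% and 35.7% of all genes. With the 6 tested second copies, 5 higher and 1 lower, the count was 59 higher and 1 lower of 62. Of the 5, COX4L, ND-49L, ND-51L1 and UQCR-6.4L had no read at stage 4 and passed the filter through later stages. The median of the main copies was 0.69, against 0.46 for all genes. The main copies numbered 32 of 32 higher in complex I, 5 of 5 in complex III, 8 of 8 in complex IV and 9 of 11 in complex V, with ATPsynC (0.14 ± 0.09, edgeR adjusted p = 0.164) and ATPsyndelta (-0.09 ± 0.09, edgeR adjusted p = 0.331) not called. In 43 of 56 the stage 15 embryos all lay above those of stage 4 and in 0 below, against 46.2% and 31.2% of all genes. Complex V had the smallest median, 0.29, against 0.78 in complex I, 0.54 in complex III and 0.76 in complex IV; these differences between complexes were not tested. The calls of ATPsynbeta (0.36), ATPsynCF6 (0.27) and ATPsyngamma (0.26) were lost with directional libraries only, with edgeR adjusted p of 0.177, 0.224 and 0.341. They were also lost without stage 15 letter F or letter G.

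Against 52.8% higher and 35.7% lower of all genes, 7 of the 15 mitochondrial members were higher and 1 lower at stage 15 than at stage 4. The share of higher calls was near the background, and that of lower calls was below it. Their median of 0.50 was close to the 0.46 of all genes. The 7 are mt:CoI, mt:CoII, mt:CoIII, mt:Cyt-b, mt:ND3, mt:ND4L and mt:srRNA, and 3 of them are the mitochondrial subunits of complex IV. mt:CoI had 5550, 6983 and 8162 CPM (lowest, median, highest) at stage 15, against 2993, 3914, 3967, 5520 and 4398 CPM at stage 4, a log2 change of 0.71 ± 0.18 (edgeR adjusted p = 0.000253) with groups that just did not overlap. mt:ATPase6 was the 1 lower gene, with 261, 345 and 387.5 CPM at stage 15, against 312, 361, 427, 583 and 584 CPM at stage 4, a log2 change of -0.47 ± 0.18 (edgeR adjusted p = 0.0133) on overlapping groups. That call was lost with the kind of library as a term, by DESeq2, and without stage 4 letter G or letter H. The count of higher members was 5 without the letter-B libraries, 4 with directional libraries only, 11 by DESeq2, and between 4 and 9 when single embryos were left out.

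Of the 56 main copies, 26 had their highest stage mean at stage 15, 15 at stage 6 and 13 at stage 5, and 21 had their lowest at stage 12, 20 at stage 4 and 9 at stage 5. Of the 13 mitochondrial protein genes, 9 were highest at stage 5 and 3 at stage 10, and 11 were lowest at stage 4. The 12 nuclear genes that fell at stage 5 had median levels of 81.3, 37.5, 53.5, 53.5, 46.6, 58.0, 85.9 and 127 CPM per kb through stages 4, 5, 6, 8, 10, 12, 13 and 15. The 41 that rose had 49.7, 103, 98.5, 88.0, 59.2, 49.4, 61.8 and 87.9 CPM per kb over the same stages. The order of the 2 sets at stages 4 and 5 follows from how they were chosen. In these medians the set that fell stood above the other again at stage 12, whereas in summed CPM it stood below at every stage after stage 4, with 1763 CPM against 2269 CPM at stage 12 and 3675 CPM against 3793 CPM at stage 15. Both sets were higher at stages 13 and 15 than at stage 12.

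Subunits of a complex are needed in fixed numbers, and the evenness of their RNA levels was also described. Over the 8 main copies of complex IV, the SD of log2 CPM per kb within an embryo averaged 0.36, 0.84, 0.70, 0.64, 0.51, 0.40, 0.33 and 0.34 through stages 4, 5, 6, 8, 10, 12, 13 and 15. The stage 5 embryos (0.70 to 0.95) lay apart from those of stage 4 (0.33 to 0.39). Over the 5 tested main copies of complex III the values were 0.86, 1.09, 0.85, 0.82, 0.55, 0.52, 0.72 and 0.85, and over the 11 of complex V 1.12, 0.84, 0.88, 0.88, 1.06, 1.20, 1.16 and 1.18. Over the 32 of complex I they were 1.10, 1.25, 1.20, 1.16, 1.04, 1.08, 1.12 and 1.07. By these means complexes I, III and IV were least even at stage 5, whereas complex V was most even there. In complex I the stage 5 embryos (1.14 to 1.31) overlapped those of stage 6 (1.17 to 1.23). All SD values rest on counts without regard to strand. In these counts ND-MWFE was the lowest of the 32 in complex I, with 2.276 CPM per kb averaged over the stage means. On its own strand, in directional libraries, it had 26.6 CPM per kb at stage 4 and 56.1 at stage 5. UQCR-6.4 and ATPsyndelta share 40.5% and 35.6% of their exon bases with other genes. The part of such overlaps in the SD values was not tested. The SD values were described after the split at stage 5 was known and share its data.

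UQCR-14 and ND-MNLL had 0 assigned reads in all 54 embryos, and both share 100% of their exon bases with another gene, CG32576 and CG45089. In the strand-specific counts of the 46 directional libraries UQCR-14 (X:16286288-16286988), a subunit of complex III, had 21912 reads. It averaged 45.6 ± 6.04, 103 ± 11.2, 117 ± 16.6, 112 ± 11.2, 104 ± 8.36, 83.0 ± 9.87, 84.8 ± 5.25 and 100.8 ± 8.75 CPM through stages 4, 5, 6, 8, 10, 12, 13 and 15, the last 2 over 4 embryos each. The 9 stage 5 embryos lay between 91.9 and 128 CPM, against 53.4, 45.8, 48.5, 37.2 and 43.1 CPM at stage 4, and the log2 change was 1.17 ± 0.09 (edgeR adjusted p = 1.07e-15). ND-MWFE of complex I, which shares 35% of its exon bases with other genes, had 551 reads without regard to strand and 8225 on its own strand. On its own strand its log2 change was 1.07 ± 0.11 at stage 5 against stage 4 (edgeR adjusted p = 8.46e-12). Overlapping genes also bear on ND-19, ND-B16.6, COX7C and UQCR-6.4, of whose strand-resolved reads 73.1%, 77.1%, 82.1% and 84.3% matched the gene's own strand.

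The nuclear members are spread over the chromosomes, with 16 on 2L, 15 on 2R, 19 on 3L, 16 on 3R, 2 on chromosome 4 and 12 on the X. Sex was not given, so the X was set apart. Of the 10 tested main copies on the X, 6 were higher and 2 lower at stage 5 than at stage 4 (median 0.64), against 45.3% and 37% of all genes on the X (median 0.34). Of the 46 on the autosomes 35 were higher and 10 lower (median 0.78), against 53.4% and 29.4% of all autosomal genes (median 0.79). Between stages 15 and 4 9 of the 10 on the X (median 0.79) and 45 of the 46 on the autosomes (median 0.63) were higher, against 47.2% of all genes on the X (median 0.17) and 53.9% of those on the autosomes (median 0.51). The difference between X and autosomes was not tested.

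Subunits of the same complexes whose symbols follow no common pattern are described beside the background of all genes tested, of which 52.1% were higher and 30.6% lower at stage 5 against stage 4 and 52.8% and 35.7% at stage 15 against stage 4. Of 8 tested, among them RFeSP and Cyt-c1 of complex III, the carrier Cyt-c-p, and levy and cype of complex IV, 7 were higher and 1 lower at stage 5 than at stage 4. The 1 is blw, the alpha subunit of ATP synthase and partner of ATPsynbeta, with 407 CPM at stage 5 and 1130 CPM at stage 4, a log2 change of -1.47 ± 0.09 (edgeR adjusted p = 8.95e-22). Between stages 15 and 4, 6 were higher and 1, Cyt-c-p, lower; cype and levy had log2 changes of 1.01 and 1.05. In complex II, succinate dehydrogenase, which has no mitochondrially encoded subunit, 2 of 7 tested were higher and 2 lower at stage 5. SdhA, its flavoprotein, had 54.3 CPM at stage 5 and 185 CPM at stage 4, a log2 change of -1.77 ± 0.07 (edgeR adjusted p = 2.98e-28), and between stages 15 and 4 SdhC had a log2 change of 1.36 and the list 4 higher and 2 lower, its second copy SdhBL among the higher.

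Lists of genes that build or serve the chain had more members called lower than higher at stage 5, where all genes had 30.6% lower and 52.1% higher. At stage 15 against stage 4 all genes had 35.7% lower and 52.8% higher. The list of assembly factors held 19 symbols, of which only 11 were matched to gene entries and 10 tested. Of these 10, 1 was higher (Ttc19) and 7 lower (Coa7 among them) at stage 5 against stage 4. At stage 15 against stage 4, 2 were higher and 4 lower, Ttc19 at 1.57 and Coa7 at -1.07 on the log2 scale. Of 13 tested genes of mitochondrial DNA replication and transcription, from a list of 18 symbols, 3 were higher and 8 lower in both comparisons. At stage 5 the mitochondrial RNA polymerase PolrMT had 19.1 CPM, against 102 CPM at stage 4, a log2 change of -2.41 ± 0.15 (edgeR adjusted p = 3.71e-21). The transcription factors TFAM and mtTFB2 were higher at stage 5, by 0.53 and 1.25 on the log2 scale, and the DNA polymerase PolG1 lower, with a log2 change of -1.26. Between stages 15 and 4 Top3alpha and mTerf5, a topoisomerase and a member of the mTERF family, had log2 changes of -3.69 and -1.15.

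Neighbouring metabolism was set beside the same shares of all genes. These were 52.1% higher and 30.6% lower at stage 5 against stage 4, and 52.8% and 35.7% at stage 15 against stage 4. In the citric acid cycle 4 of 14 genes were higher and 8 lower at stage 5 against stage 4. At stage 15 against stage 4, 5 were higher and 6 lower, ScsbetaG at 1.37 and Pdha at -1.31 on the log2 scale. Of 12 glycolysis genes 1 was higher and 10 lower at stage 5, with a median log2 change of -3.25, and 2 were higher and 10 lower at stage 15 against stage 4. Ldh, lactate dehydrogenase, had 293 CPM at stage 15 and 0.100 CPM at stage 4, and PyK, pyruvate kinase, 19.6 CPM at stage 15 and 525 CPM at stage 4. Of 8 regulators of metabolic genes 1 was higher and 6 lower at stage 5, and 4 were higher and 2 lower at stage 15 against stage 4. Among them srl, the fly relative of the mammalian PGC-1 coactivators, had 19.6 CPM at stage 5 and 515 CPM at stage 4, and crc, the fly ATF4, had 97.0 CPM at stage 5 and 42.8 CPM at stage 4.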

How the data were processed

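Single whole embryos were lysed with spike-in RNA, ribosomal RNA was depleted with a kit for human, mouse and rat, and directional libraries were made, 8 of them non-directional, per the labels' protocols. The values are gene counts, deposited by the authors in 1 table per embryo, made with STAR 2.5.3a on dm6 per the submitters' processing notes. Each table holds 3 columns of counts, without regard to strand and on each strand, and 4 summary entries that were left out. The count without regard to strand was used, because 8 libraries carry no strand. The gene annotation behind the counts was not given in the sources used here. Symbols, positions and exon lengths came from Ensembl release 115 (BDGP6.54), and 17343 of 17481 identifiers matched.

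Counts of 54 embryos entered 1 edgeR 4.0.16 quasi-likelihood fit (R 4.3.3) of stage means, with TMM scaling and edgeR's default filter on low counts, which left 9783 genes; tables and plots were made with Python 3.11.15, pandas 2.3.3 and matplotlib 3.10.9. The comparisons were the 7 of neighbouring stages and stage 15 against stage 4. P-values were adjusted over all genes tested by the Benjamini-Hochberg method, with a threshold of 0.05, and measure the spread between embryos. The fit was checked on simulated data. Of 168 pairs of embryos within a stage, none agreed within sampling noise (smallest chi-square per degree of freedom 3.99). Letters in the titles recur between stages. The deviations of same-letter embryos correlated between -0.274 and 0.245; those of letter B lay between 0.127 and 0.245 in all 5 comparisons among stages 4 to 12, but no comparison had every letter above 0.1, so letters were not used as pairs. Alternatives were DESeq2 1.42.0 and its size factors, no filter, scaling over nuclear genes, directional libraries only, strand-specific counts, a letter block, leaving out each embryo and, chosen after seeing the data, leaving out the letter-B libraries of stages 4 to 12 or letters D, E, F and J of stage 10, library kind as a term, and non-directional libraries only.

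Members and gene lists were chosen with earlier results of these data known. Genes named are all mitochondrial members, in each complex the 2 with the highest level per kilobase and the 2 with the largest called change between stages 15 and 4, tested second copies, the lowest adjusted p of each direction and comparison, and in each list the 2 lowest p between stages 15 and 4. Others were named after their values were seen. The lists cover complex II, other subunits, assembly factors, mitochondrial DNA replication and transcription, the citric acid cycle, glycolysis, regulators of metabolic genes and stage markers. No genome or sequence table was used, and no motif search was run.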

Additional observations from a re-analysis of the deposited data

Results flagged for a closer look

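For 183 sets of embryos, each a quantity or named gene within a stage, the highest and lowest embryo were compared with the nearest other one, and 13 sets had an embryo standing apart by Dixon's 95% criterion; chance gives about 1 in 20. Of these, 8 are libraries with letter B. The summed mitochondrial protein-gene RNA was 16500 CPM in the letter-B embryo of stage 5, against 25840 CPM in the nearest other, and 15675 CPM in that of stage 8, against 25749 CPM. The ratio of mitochondrial ribosomal to protein-gene RNA was 1.671 in letter B of stage 4 (nearest other 0.981), 1.347 at stage 5 (0.896), 1.449 at stage 6 (0.816) and 1.395 at stage 8 (0.875). At stage 6 the ratio of mt:lrRNA to mt:srRNA was 3.109 in letter B, against 1.70 in the nearest other. mt:ATPase6 had 892.8 CPM in letter B of stage 5, against 1254 CPM in the nearest other.

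The other 5 embryos that stood apart did so in 1 gene each. mt:srRNA had 10395 CPM in letter C of stage 12, against 5430 CPM in the nearest other. mt:ND6 had 12.31 CPM in letter G of stage 6, against 5.957 CPM. ND-42 had 233.4 CPM in letter G of stage 8, against 195.8 CPM. ATPsynbeta had 805.4 CPM in letter D of stage 12, against 743.6 CPM. ND-75 had 239.5 CPM in letter A of stage 13, against 216.6 CPM.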

How the results depend on the processing

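The counts of members called at stage 5 against stage 4 stayed within 1.5 times under every alternative run. The log2 ratio of mitochondrial to nuclear RNA stayed within its spread at every stage. Single calls were checked for the mitochondrial members and the genes named by rule, 236 pairs of gene and comparison. Calls of other members were not checked. Among these pairs only mt:srRNA at stage 12 against 10 reversed. Its log2 change was 0.10 without stage 10 letters D, E, F and J and did not pass the test. Counts that moved by over 1.5 times are these, and the cause was not tested. At stage 6 against stage 5, nuclear members called lower were 4 with DESeq2 size factors, with DESeq2's Wald test and with directional libraries only, and 5 with strand-specific counts. At stage 8 against stage 6 they were 5 without the low-count filter and 5 without the letter-B libraries. At stage 10 against stage 8, 1 mitochondrial member was called higher with strand-specific counts. At stage 13 against stage 12, mitochondrial members called lower were 3 with DESeq2 size factors, without the filter and with the Wald test, 0 with directional libraries only, and 1 with strand-specific counts and with library kind as a term. Nuclear members called lower there were 3 without the filter, 2 without letter B and 0 with library kind as a term. At stage 15 against stage 13, nuclear members called lower were 0 without the filter, with directional libraries only and with strand-specific counts, and 2 with the letter as a replicate block. At stage 15 against stage 4, mitochondrial members called higher were 11 with DESeq2 size factors and the Wald test and 4 with directional libraries only, while those called lower were 0 with DESeq2 size factors, the Wald test, strand-specific counts and library kind as a term; 2 nuclear members were called lower with directional libraries only. Without stage 10 letters D, E, F and J, chosen after seeing the data, 3 nuclear members were called higher and 2 mitochondrial members lower at stage 10 against 8, 0 mitochondrial members lower at stage 12 against 10, and 0 nuclear members lower at stage 15 against 13. The letter as a replicate block moved no other count by over 1.5 times. Among the checked pairs, calls lost with it were COX6B at stage 10 against 8, mt:srRNA at stage 12 against 10, and mt:ND3 and mt:ND4L at stage 15 against 4.

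Leaving out each of the 54 embryos in turn gave these ranges. Nuclear members called lower were 2 to 5 at stage 6 against 5 (most without stage 5 letter E), 3 to 10 at stage 8 against 6 (3 without stage 6 letter G or stage 8 letter C, 4 without stage 6 letter D, 5 without stage 6 letter B or stage 8 letter D), 0 to 3 at stage 13 against 12 and 0 to 2 at stage 15 against 13. Nuclear members called higher at stage 8 against 6 were 0 to 1. Mitochondrial members called lower were 0 to 1 at stage 6 against 5, 7 to 13 at stage 12 against 10, 1 to 7 at stage 13 against 12 (1 without stage 12 letter C, 3 without stage 13 letter A or G) and 0 to 1 at stage 15 against 4. Those called higher were 0 to 1 at stage 10 against 8 (1 without stage 8 letter G) and 4 to 9 at stage 15 against 4 (4 without letters B, C or D of stage 4 or F or I of stage 15).

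Scaling sets the level of all changes. With DESeq2 size factors the median of all genes was higher by 0.13 at stage 5 against 4 and by 0.25 at stage 15 against 4 (log2), and without the filter by 0.15 and 0.45. Embryos of stages 13 and 15 differ in library kind, and the spread between embryos, wider for mitochondrial than for nuclear genes, limits what could be detected.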
